A study of Mus musculus with 6 samples.

Results

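The 10 mouse diacylglycerol kinase (DGK) genes, Dgka, Dgkb, Dgkd, Dgke, Dgkg, Dgkh, Dgki, Dgkk, Dgkq and Dgkz, were followed in RNA-seq data from fetal ovaries exposed to panobinostat (PB), an inhibitor of histone deacetylases. Their transcripts were taken by the gene name given in the deposited comparison table, which made 10 of 35974 gene names and 106 of 114412 transcripts. The family was selected on transcript counts of this same contrast, above all those of Dgkz and Dgkb, which were known beforehand. All values of PB against control are therefore given as descriptions, beside the same measure over all features.

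DGKs phosphorylate diacylglycerol (DAG), the lipid messenger that phospholipase C releases from membrane phosphoinositides, into phosphatidic acid. This step ends the recruitment of protein kinase C, RasGRP exchange factors and chimaerins by DAG, and it opens the path by which phosphatidylinositol is made again. In female germ cells the pathway is best known from fertilization, when phospholipase C acts in the egg to release calcium and form DAG.

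Pregnant C57Bl6j mice received PB by oral gavage at 5 mg/kg from E6.5 to E15.5 (per day in the sample annotation, every 2 days in the paper), or DMSO and water alone. Ovaries were collected at E15.5, and each group had 3 pools as separate biological replicates, with 4 ovaries per pool in the sample annotation, 6 to 8 in the series description and a minimum of 8 in the RNA-seq methods. The series text describes control libraries too as coming from exposed mice, so the groups rest on the names of the libraries. The directional poly(A) libraries were deposited as counts per transcript, which totalled 103627570, 125985399 and 97165644 for control 1, 2 and 3 and 100650825, 104696262 and 120143093 for PB 1, 2 and 3. Detection had a floor set at 3 counts. Levels are in CPM, counts scaled to the TMM-adjusted size of each library. The floor is 0.0253 to 0.0311 CPM for a transcript and 0.0257 to 0.0319 CPM for a gene sum. This floor and the intervals given below treat the deposited counts as counts of reads. They cover counting error only, and not the division of reads among transcripts.

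The cells of the fetal ovary were seen through their markers. The 7 germ cell markers, with Dazl the most abundant at a mean of 267 CPM, summed to 842, 631 and 829 CPM in the control pools and 921, 546 and 988 CPM in the PB pools. The 7 pregranulosa markers, led by Wnt4 at 223 CPM, summed to 884, 832 and 824 CPM in control and 872, 846 and 773 CPM in PB. Germ cell markers were thus lowest in control 2 and PB 2, pregranulosa markers varied less between pools, and the groups overlapped in both sums. Of the 5 Sertoli cell markers, Sry, the gene that starts testis development, had 0 counts in every pool, and the list, led by Sox9 at 12.2 CPM, summed to 16.1, 15.6 and 18.7 CPM in control and 14.8, 18.2 and 15.1 CPM in PB.

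The question put to the gene sums was whether the ovaries of PB-exposed fetuses held a different amount of each kinase's RNA. A gene sum adds up the counts of all transcripts with one gene name, and it is compared between genes as CPM per kb of exon, the CPM of each transcript divided by its exon length and then summed. Dgkz and Dgkd stood far above the other 8 genes in both groups, and no gene sum separated the groups. Together these 2 genes held between 84.7% and 86.1% of the family's counts in each pool, and the family as a whole summed to 361, 343 and 352 CPM in control and 363, 331 and 369 CPM in PB. In ovary RNA taken in bulk, fewer cells of a type and less RNA per cell cannot be told apart.

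**Figure D1:**
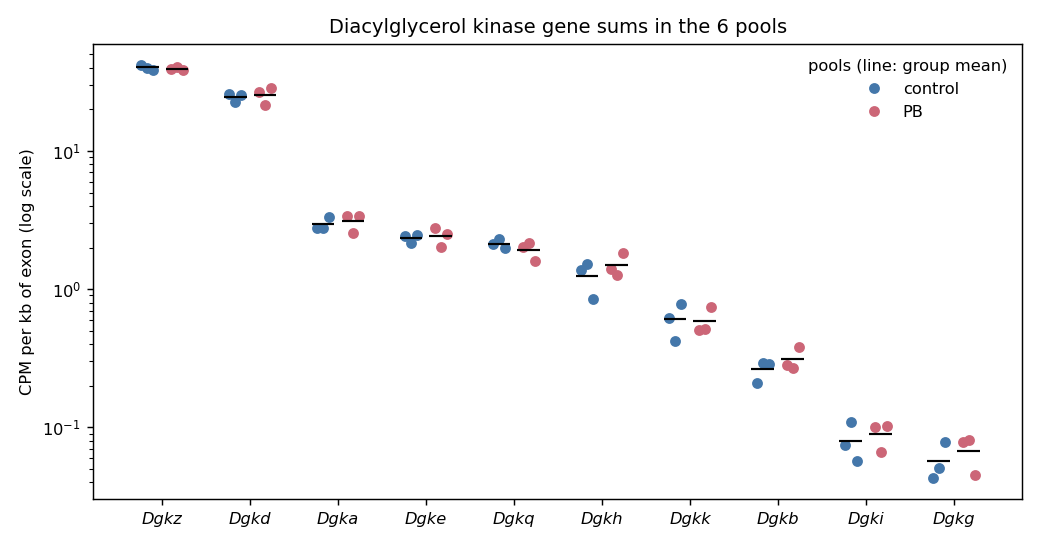
Level of each DGK gene sum in CPM per kb of exon on a log scale, with 1 point per pool and a line at the mean of each group of 3 pools. Dgkz, at 38.5 to 42.1 CPM per kb, lies above Dgkd in every pool, and control and PB points overlap for all 10 genes.

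The gene with the highest level per length was Dgkz, whose kinase carries ankyrin repeats and a MARCKS-like domain and limits RasGRP signalling in T cells. Its transcripts span chr2:91932822-91976443 on the minus strand of mm10. Its gene sum was 163, 163 and 152 CPM for control 1, 2 and 3, beside 156, 159 and 150 CPM for PB 1, 2 and 3. All 6 values lay close together and the groups overlapped, with a level of 40.2 ± 1.80 CPM per kb in control and 39.4 ± 0.930 CPM per kb in PB (mean ± SD, n = 3). The log2 fold change of PB over control was -0.040 (SE 0.049, FDR = 0.904, edgeR quasi-likelihood test with Benjamini-Hochberg adjustment over all genes), and it was -0.56 (SE 0.12, FDR = 0.917) when transcripts without a RefSeq match were left out. The other member with ankyrin repeats and this domain, Dgki, whose product acts on RasGRP3, was 0.0799 ± 0.0265 CPM per kb in control and 0.0900 ± 0.0205 CPM per kb in PB, above Dgkg alone.

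Dgkd, which spans chr1:87853273-87945177, encodes a kinase with a pleckstrin homology domain that acts on protein kinase C and on receptor turnover. Its gene sum was 148, 128 and 146 CPM in the control pools and 153, 122 and 165 CPM in the PB pools. The low pools were control 2 and PB 2, the pools with the lowest germ cell marker sums, and the part of the germ cells in this was not tested. Its level was 24.6 ± 1.85 CPM per kb in control and 25.6 ± 3.74 CPM per kb in PB. The 2 other members of the same structural group were lower, namely Dgkh, a kinase that assists Raf signalling, at 1.24 ± 0.350 and 1.50 ± 0.295 CPM per kb in control and PB, and the X-linked Dgkk, whose messenger RNA is a target of the fragile X protein, at 0.604 ± 0.176 and 0.588 ± 0.135 CPM per kb.

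The calcium-binding members differed widely in level. Dgka, the isoform known for holding back T cell activation, was 2.97 ± 0.319 CPM per kb in control and 3.10 ± 0.467 CPM per kb in PB. Dgkb, a kinase chiefly known from neurons, was 0.262 ± 0.0460 and 0.311 ± 0.0612 CPM per kb. Dgkg, a relative best studied in brain, was the lowest of the family at 0.0573 ± 0.0185 and 0.0678 ± 0.0196 CPM per kb, with 24 to 47 counts per pool. The levels of these genes overlapped between control and PB.

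The remaining members each stand alone in their structural group. Dgke, the isoform that prefers DAG with arachidonic acid and so serves the phosphatidylinositol cycle, was 2.35 ± 0.157 CPM per kb in control and 2.43 ± 0.371 CPM per kb in PB. Dgkq, a kinase regulated by RhoA, was 2.13 ± 0.167 and 1.91 ± 0.290 CPM per kb. Its log2 fold change of -0.17 (SE 0.11) went with the smallest FDR of the family by edgeR, 0.888, and the groups overlapped.

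In the order of levels per length, Dgkz, Dgkd, Dgka, Dgke, Dgkq, Dgkh, Dgkk, Dgkb, Dgki and Dgkg, some neighbours did not differ beyond their spread. The ranges over the 6 pools overlapped between Dgka and Dgke, Dgke and Dgkq, Dgkq and Dgkh, and Dgki and Dgkg. Every other pair of neighbours was separated in all pools.

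All 10 gene sums were tested, and edgeR called 0 of them when both a 2-fold difference and an FDR of 0.05 or less were required, where it called 0.0154% of all 19435 genes tested. At an unadjusted p under 0.05 the count was also 0 of 10, beside 4.46% of all. DESeq2's Wald test called 0 as well, against 0.0422% of all genes with an adjusted p, of which 0.0153% were lower and 0.0268% higher in PB. The groups did not overlap in 0 of the 10, beside 10.7% of all genes tested. The log2 fold change was above 0 in 7 members, beside 50.7% of all genes, and below 0 in 3. Its median was 0.067, beside 0.0020 over all genes tested, whose quartiles lay at -0.10 and 0.10.

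The next question was which transcripts of each gene made up these sums. Of the 106 transcripts, 102 matched a RefSeq intron chain and 4 were assembled from the reads without such a match. All pools had 0 counts in 27 of them, and 41 had enough counts for the edgeR test. Dgkz stood out by shares that differed between the groups, those of Dgkb differed between the groups and among the PB pools, and Dgkq, Dgkh and Dgka had shares that differed as much between pools of one group. In edgeR 1 of the 41 was called, beside 0.0332% of all 51227 transcripts tested, and 13 of the 41 had groups that did not overlap, beside 9.95% of all. At an unadjusted p under 0.05 there were 11 of the 41, beside 3.56% of all. The 13 without overlap were 11 transcripts of Dgkz and 2 of Dgkb, the genes for which the family was picked, so nothing is read from these counts. DESeq2's Wald test called 10, of which 7 were lower and 3 higher in PB, beside 0.902% and 0.950% of the 63278 transcripts with an adjusted p, and 7 of the 10 were of Dgkz and 3 of Dgkb.

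Dgkz had counts in all 21 of its transcripts, and they start at 8 places, counted as start groups of 5′ ends within 100 bases of the next. In PB pools its counts lay mainly in NM_001166597.1 and in transcripts that begin at position 91963563, and 8 of the 10 transcripts described under the rule were lower in PB. NM_001166597.1, which begins at 91950348, had 3763, 8144 and 3269 counts in control and 9031, 9166 and 8724 in PB. That was 23.5%, 42.7% and 22.9% of the gene in control and 58.2%, 56.5% and 50.1% in PB. Control 2 was the highest control pool and still lay under every PB pool, and PB was 1.73-fold higher (95% counting interval 1.70 to 1.76).

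MSTRG.10286.14, an assembled transcript without a RefSeq match that begins at 91963563, had 1371, 2356 and 1531 counts in control and 4684, 4440 and 2751 in PB. It made up 8.57%, 12.4% and 10.7% of the gene in control and 30.2%, 27.4% and 15.8% in PB, and it was 2.20-fold higher in PB (95% counting interval 2.13 to 2.28) without overlap. NM_138306.2, which has the same start, had 1342, 1175 and 1440 counts in control and 1, 1 and 39 in PB, a 99.0-fold lower level in PB (95% counting interval 72.8 to 138). PB 3 held nearly all of its PB counts, and without PB 3 the ratio was 1290 (95% counting interval 357 to 10654). PB 1 and PB 2 were under the floor of 3 counts. The 2 transcripts differed in opposite directions although they share 3489 exonic bases and have 3 and 5 bases of their own. Together the pair held 17.0%, 18.5% and 20.8% of the gene in control and 30.2%, 27.4% and 16.0% in PB, so that the groups overlapped, with PB 3 under the control pools. Another transcript with this start, the assembled MSTRG.10286.13, was chosen for mention after its values were seen, and it was at 0 in control 1, 2 and 3 and in PB 1, with 1368 counts in PB 2 and 5057 in PB 3.

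The transcripts described under the rule that begin at 91965610 or farther upstream had nearly all their counts in control pools. XM_006498543.2, with its start at 91965610, had 3685, 2608 and 3978 counts in control and 43, 74 and 1 in PB, which is 89.2-fold lower in PB (95% counting interval 74.4 to 108). XM_006498540.2, from the same start, had 370, 312 and 273 counts in control and 56, 80 and 1 in PB, which is 7.15-fold lower (95% counting interval 5.97 to 8.61). In both, each PB pool was under each control pool and PB 3 had the least. XM_006498541.2, which begins at 91975778, had 2331, 660 and 637 counts in control and 0, 0 and 1 in PB, a ratio of 3720 with a 95% counting interval of 667 to 146968. Its PB pools were all under the floor of 3 counts. XM_006498539.1, whose first base at 91976443 is the outermost of the gene, had 214, 238 and 217 counts in control and 11, 10 and 52 in PB, which is 9.40-fold lower (95% counting interval 7.37 to 12.1). The groups were apart in both, with control 1 far above the other control pools for the former and PB 3 the highest PB pool for the latter. Single pools moved these ratios, in a check added after the data were seen. For XM_006498543.2 the ratio was 162 without PB 2 and 57.2 without PB 3, and for XM_006498540.2 it was 11.6 and 4.58. For XM_006498541.2 it was 1951 without control 1. Without PB 3, the only PB pool with a count, its level was at least 404-fold lower in PB against the floor of 3 counts. For XM_006498539.1 the ratio was 20.8 without PB 3. The direction was the same each time.

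Of the transcripts described under the rule that begin at 91950214 to 91950422, all but NM_001166597.1 were lower in PB too. XM_017314867.1, which begins at 91950214, is the transcript called by edgeR. It was present in control 1, 2 and 3 with 1271, 2073 and 1310 counts, and PB 1, 2 and 3 had 1, 1 and 1. The ratio was 1591 with a 95% counting interval of 544 to 7716. All PB pools were far under all control pools and also under the floor of 3 counts. The call was lost with the replicate number as a block and without control 1, control 3 or PB 1, settings in which edgeR called 0, 0, 1 and 2 of all transcripts, beside 17 in the main test. The ratio without these pools was 1696, 1646 and 1639. XM_006498538.2, from the same start, had 478, 422 and 341 counts in control and 11, 6 and 1 in PB, which is 70.7-fold lower (95% counting interval 44.5 to 120). XM_006498537.1, whose first base is at 91950422, had 220, 79 and 163 counts in control and 53, 2 and 2 in PB, which is 8.31-fold lower (95% counting interval 6.30 to 11.1). In this last one PB 1 came nearest to the control pools without reaching control 2, the lowest of them. Its ratio was 81.4 without PB 1 and 5.48 without PB 3, and that of XM_006498538.2 was 125 without PB 1. Others at 91950214, chosen after their values were seen, had most of their counts in PB pools, namely XR_866203.1 with 0, 5 and 0 counts in control and 788, 91 and 0 in PB, and XM_011239244.1 with 118, 0 and 0 in control and 378, 529 and 1 in PB.

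**Figure D2:**
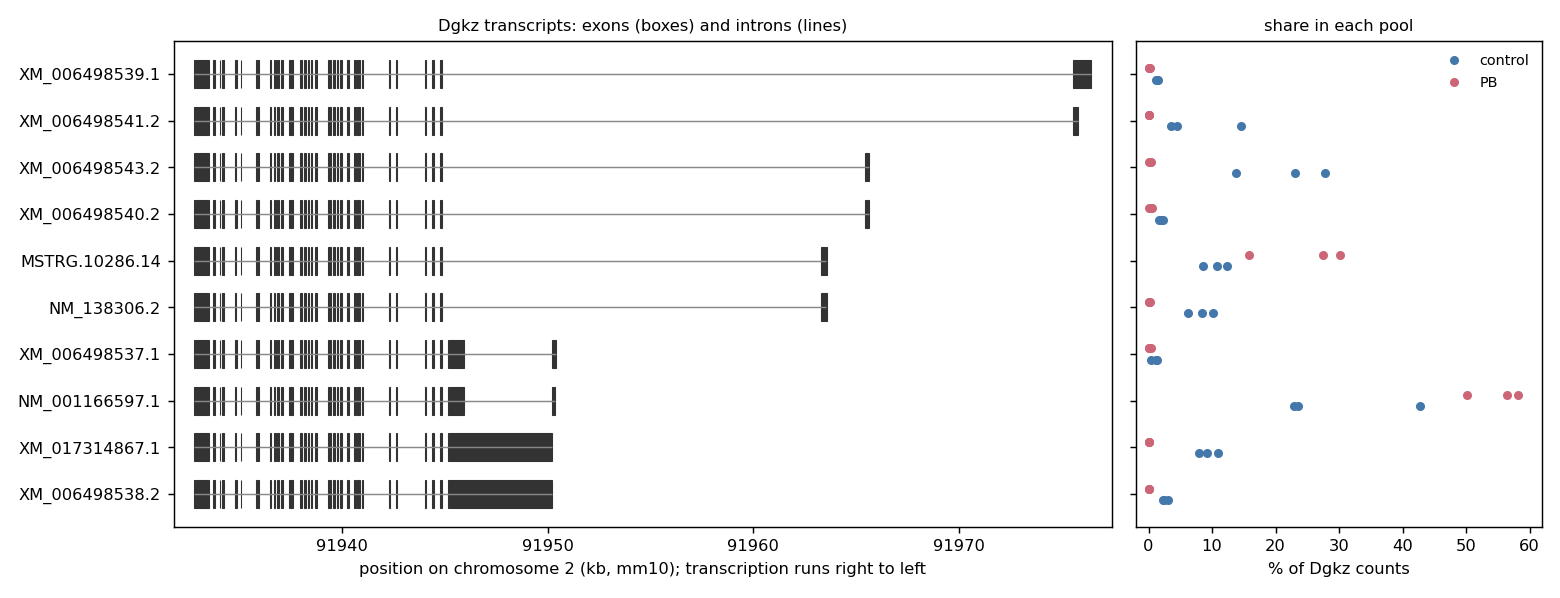
Exons (boxes) and introns (lines) of the 10 Dgkz transcripts described, by position in kb on chromosome 2 of mm10, with the share of each in percent of the Dgkz counts, 1 point per pool. NM_001166597.1 and MSTRG.10286.14 have higher shares in all 3 PB pools than in all 3 control pools, and the other 8 have lower ones.

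Counts were also summed by start, which removes the division of reads among transcripts that share a start. The division among transcripts of different starts remains, and XM_006498543.2 shares 3211 of its 3406 exonic bases with NM_001166597.1. Its part in the sums was not tested. All 8 start groups of Dgkz had groups that did not overlap, 2 of them higher and 6 lower in PB. The start group at 91950348 to 91950422 held 24.9%, 43.1% and 24.0% of the gene in control and 58.6%, 56.5% and 50.1% in PB. The start group at 91963563 held 17.0%, 18.5% and 20.8% in control and 30.2%, 35.8% and 45.0% in PB. These 2 were the starts with higher shares in PB. Their group means were 30.7 ± 10.8% and 18.8 ± 1.92% in control and 55.1 ± 4.43% and 37.0 ± 7.49% in PB (mean ± SD, n = 3).

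The start at 91965610 differed in the other direction, with 23.6 ± 7.40% of the gene in control and 1.51 ± 0.791% in PB. Its counts were 4080, 2948 and 4277 in control and 134, 207 and 417 in PB, which is 15.3-fold lower in PB (95% counting interval 14.2 to 16.5). Every PB pool was far under every control pool. Of the 417 counts in PB 3, 415 were in the assembled MSTRG.10286.19, chosen after its values were seen, with 0, 2 and 0 counts in control and 35, 0 and 415 in PB. The 7 transcripts that begin at 91950214 made up 13.9 ± 1.78% of the gene in control and 4.12 ± 3.69% in PB, at 7.85%, 4.02% and 0.482% in PB 1, 2 and 3. Over the family, edgeR called 0 of 27 start groups tested, beside 0.0134% of all 29875 start groups, and 7 of the 27 had an unadjusted p under 0.05, beside 3.97%. Groups did not overlap in 9 of the 27, beside 10.3% of all, and DESeq2's Wald test called 4 of the 33 with an adjusted p, beside 1.85% of all 35187. All 4 were starts of Dgkz lower in PB, beside 0.878% lower and 0.972% higher over all, and nothing is read from their number.

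The transcripts of Dgkz also differed at their 3′ end, a grouping that was made after the values were seen. The 12 transcripts whose last base is at 91932822 or 91932823 held 66.9%, 44.7% and 64.7% of the gene in control and 3.58%, 3.57% and 2.31% in PB. The 3 transcripts that end slightly earlier, at 91932827, held 32.1%, 55.1% and 33.6% in control and 88.4%, 92.3% and 94.9% in PB. The groups were far apart for both ends, and control 2 was the control pool nearest to PB. All transcripts described here as lower in PB have the longer end, and NM_001166597.1, MSTRG.10286.14 and MSTRG.10286.13 have the shorter one. NM_138306.2 and MSTRG.10286.14, the former lower and the latter higher in PB, begin at the same base and differ in this end and in an exon from 91936702, of 70 bases in NM_138306.2 and 73 in MSTRG.10286.14. Over the gene both forms of that exon overlapped between the groups, the 70-base form with 69.5% to 72.6% in control and 58.6% to 79.4% in PB. How the reads of the gene were divided between these ends was not tested.

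Inside the gene, exon use was counted through the transcripts that hold each form. The 83-base form of an exon at 91934816 to 91934898 was held by transcripts with 12.9%, 8.79% and 11.3% of the gene in control and 3.27%, 2.95% and 2.01% in PB, while the 44-base form, to 91934859, had 86.1% to 90.9% in control and 88.7% to 95.2% in PB. The longer form was lower in every PB pool, and the shorter form overlapped between the groups. The 751-base exon at 91945174 to 91945924, which NM_001166597.1 contains, was in transcripts with 24.9%, 43.1% and 24.0% of the gene in control and 58.6%, 64.9% and 79.1% in PB.

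The windows of the 2 starts with higher PB shares are printed since the transcripts that begin there held most of the Dgkz counts in PB. Both come from the RefSeq promoters of GRCm38.p6 on the minus strand, from 250 bases before the start to 50 bases from it, written 5′ to 3′. Capitals mark matches to GGGCGG or its reverse complement CCGCCC, searched on both strands with overlapping matches counted. This motif was in 35.7% of the 32851 promoters of the table and in 10 of the 16 promoters of the 10 DGK genes. The window at 91963563 has 77.7% G and C, 43 CG pairs and 5 matches, and its G and C content was higher than that of 97.9% of all promoters. The window at 91950348 has 61.7% G and C, 10 CG pairs and 1 match, and was higher than 74.6%, beside medians of 52.7% and 7 CG pairs over the table.
Dgkz chr2:91963514-91963813: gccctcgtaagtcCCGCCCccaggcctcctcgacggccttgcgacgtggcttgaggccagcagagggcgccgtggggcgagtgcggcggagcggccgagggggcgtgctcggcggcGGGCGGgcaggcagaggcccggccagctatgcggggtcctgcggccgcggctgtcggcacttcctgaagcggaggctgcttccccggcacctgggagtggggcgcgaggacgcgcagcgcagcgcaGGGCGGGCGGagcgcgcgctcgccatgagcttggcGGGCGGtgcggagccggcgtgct
Dgkz chr2:91950299-91950598: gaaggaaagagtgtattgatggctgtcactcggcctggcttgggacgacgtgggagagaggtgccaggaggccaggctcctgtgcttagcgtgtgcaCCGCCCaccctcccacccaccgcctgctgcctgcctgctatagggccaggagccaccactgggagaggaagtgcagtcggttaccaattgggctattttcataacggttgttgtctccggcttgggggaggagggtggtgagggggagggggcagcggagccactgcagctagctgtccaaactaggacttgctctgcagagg

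Dgkb had a gene sum of 136, 226 and 179 counts in control and 184, 169 and 284 in PB, and at this low level its transcripts differed between the groups. XM_006515067.2, which begins at 37880449 on chr12, had 121, 226 and 179 counts in control and 42, 70 and 32 in PB. It made up 89.0%, 100% and 100% of the gene in control and 22.8%, 41.4% and 11.3% in PB, and it was 3.75-fold lower in PB (95% counting interval 3.11 to 4.54) without overlap. XM_006515070.2, which lacks 22 exonic bases of it, was at 0 in all control pools and had 126, 4 and 55 counts in PB, at least 20.3-fold higher in PB against the floor of 3 counts in each control pool. PB 1 held most of its counts, without it the bound was 8.78-fold, and PB 2 was near the floor. XM_006515069.2, which lacks 270 bases of XM_006515067.2, had 15, 0 and 0 counts in control and 0, 11 and 155 in PB, so the groups overlapped and PB 3 held most of it. NM_178681.4, outside the rule and chosen after its values were seen, was at 0 in all control pools and had 16, 55 and 13 counts in PB.

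Dgkb was also summed by start. The start group at 37880449 to 37880450 held 89.0%, 100% and 100% of the gene in control and 91.3%, 43.8% and 30.6% in PB. PB 1 was thus inside the control range, and the groups overlapped. The start group at 37880705 to 37880716 held 11.0%, 0% and 0% in control and 8.70%, 39.1% and 59.2% in PB, again with overlap in the share. Its counts were 15, 0 and 0 in control and 16, 66 and 168 in PB, and in CPM the groups did not overlap, with PB 1 barely above control 1. PB was 16.3-fold higher (95% counting interval 9.67 to 29.5), but 8.39-fold without PB 3 and 10.1-fold without control 2, in the check of single pools added later. Without control 1 the control pools were at 0, and PB was at least 26.2-fold higher against the floor.

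Dgkq and Dgkh showed shares that split the pools without regard to exposure. For Dgkq, NM_199011.1 had 876, 972 and 1 counts in control and 834, 816 and 2 in PB. XM_017320603.1 had 0, 86 and 439 counts in control and 0, 106 and 511 in PB, and XR_001784592.1 had 56, 71 and 348 counts in control and 53, 43 and 292 in PB. Control 3 and PB 3 thus carried the latter transcripts in place of NM_199011.1, which made up 0.109% and 0.223% of the gene there and between 78.7% and 91.3% in the other pools. NM_199011.1 and XM_017320603.1 share 4497 exonic bases and have 48 and 58 of their own.

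For Dgkh, XM_011245100.2 had 678, 802 and 524 counts in control and 592, 445 and 913 in PB. NM_001081336.1 had 279, 449 and 7 counts in control and 352, 2 and 504 in PB, and XM_011245101.2 had 0, 59 and 539 counts in control and 0, 615 and 0 in PB. Control 3 and PB 2 were the pools with most of XM_011245101.2 and hardly any NM_001081336.1, so each group contained 1 such pool. XM_011245101.2 shares 14666 bases with XM_011245100.2, from which it differs by 134. For Dgka, NM_016811.2 had 360, 459 and 344 counts in control and 152, 570 and 1024 in PB, from 16.3% of the gene in PB 1 to 92.2% in PB 3, with the control pools between them at 40.2% to 50.3%.

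The other members kept to 1 or 2 transcripts in all pools. NM_177646.3 made up 89.2% to 95.2% of Dgkd, with 13650, 14155 and 12678 counts in control and 13649, 11914 and 17082 in PB. Dgke was divided between XR_001780032.1, with 766, 987 and 735 counts in control and 879, 917 and 774 in PB, and NM_019505.3, with 564, 517 and 563 counts in control and 729, 433 and 810 in PB. In Dgke the share of XR_001780032.1 was highest in control 2 and PB 2, at 64.1% and 67.9%, and the groups overlapped. Dgki had 90.8% or more of its counts in XM_017321631.1, with 119, 251 and 118 counts in control and 207, 150 and 204 in PB. All counts of Dgkk were in NM_177914.3, with 432, 353 and 522 in control and 357, 378 and 619 in PB, and all those of Dgkg in XM_017316850.1, with 24, 34 and 42 in control and 44, 47 and 30 in PB.

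**Figure D3:**
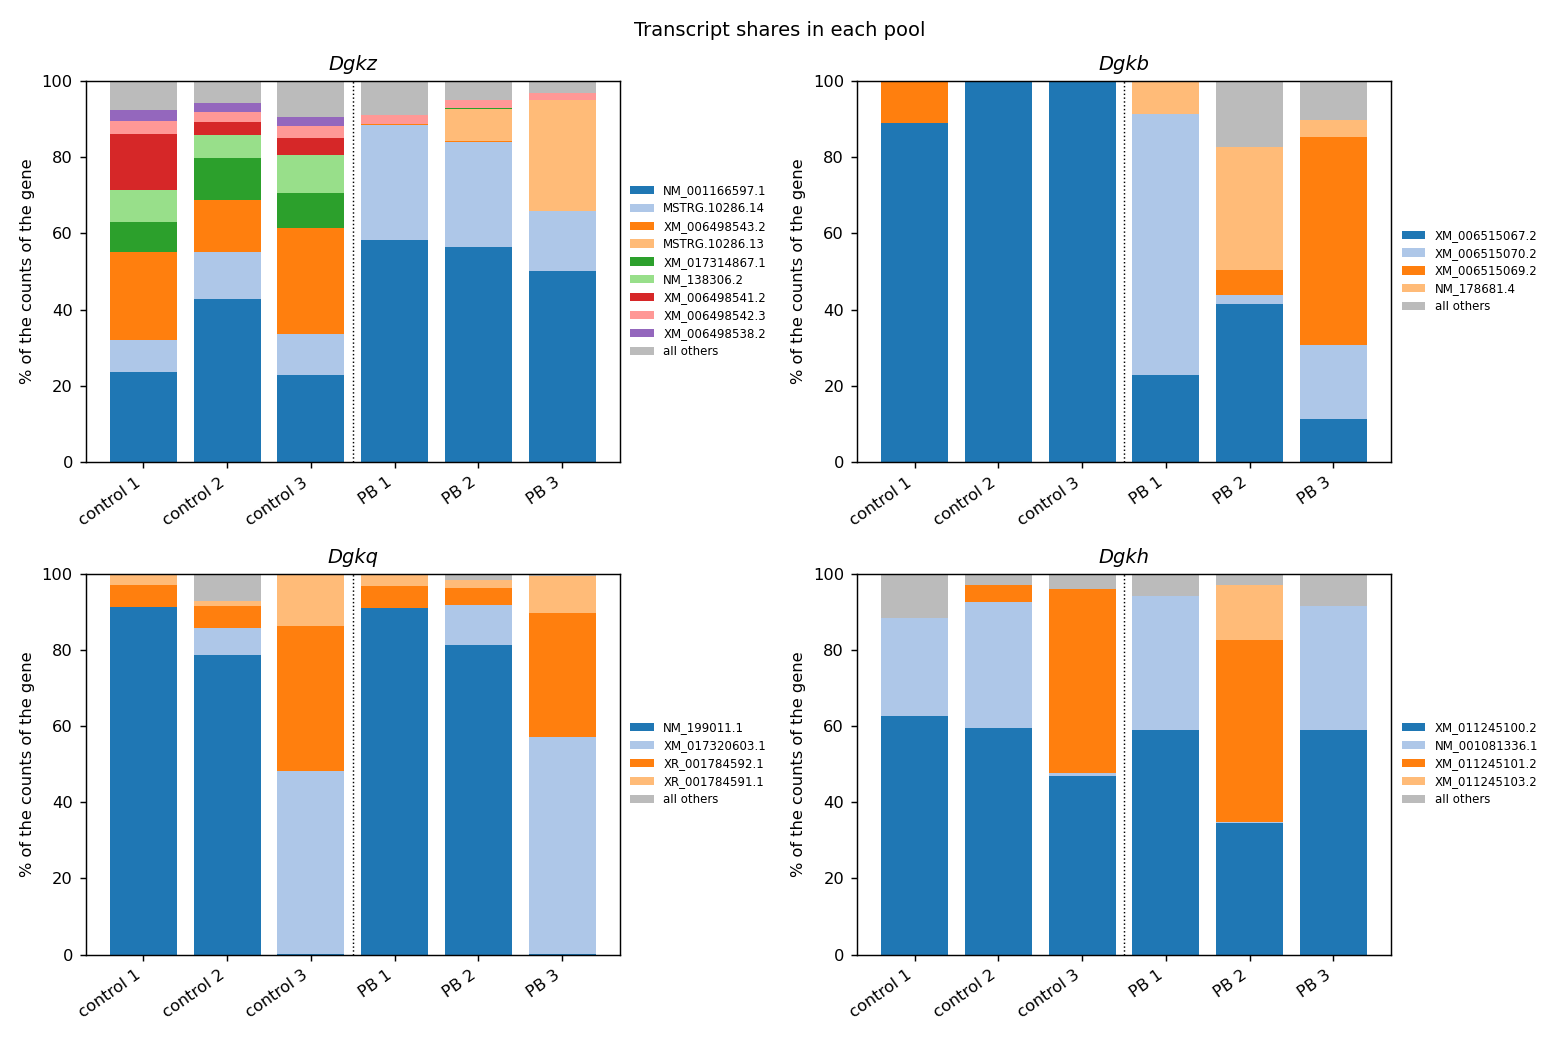
Share of each transcript in percent of the counts of Dgkz, Dgkb, Dgkq and Dgkh, 1 bar per pool with control left and PB right of the dotted line. The shares of Dgkz differ between the groups and those of Dgkb also among the PB pools, whereas NM_199011.1 of Dgkq is nearly absent from control 3 and PB 3, at 0.109% and 0.223%.

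These differences in shares were put on one scale by the isoform dissimilarity of 2 pools, which is 0 for equal shares and 1 for no transcript in common. For each gene the mean over the 6 pairs of pools within a group was subtracted from the mean over the 9 pairs between groups. Over the 11005 genes with at least 100 counts in each pool and 2 transcripts with counts, the median difference was -0.00150 and the 99th percentile 0.264. Dgkb, with 0.729 between and 0.363 within groups, had a difference of 0.365, and Dgkz, with 0.563 between and 0.220 within, had one of 0.343. Both lie above that percentile, as the choice of the family would have it, and in Dgkz each pair between groups, at 0.412 or more, exceeded each pair within, at 0.321 or less, which held for 0.854% of the 11005 genes. It did not hold for Dgkb, whose PB pools differed from one another by 0.648 to 0.661 while control 1 and PB 2 differed by 0.521. The difference of Dgkb was 0.258 without control 1, 0.202 without control 2 or control 3 and 0.165 with shares of start groups. These values lie under 0.264, the percentile given above. Without PB 2 the difference was 0.594.

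The other 6 members that could be measured lay from -0.189 to 0.0171. Dgka had a difference of 0.0171, with 0.557 between and 0.540 within groups. Dgkd, at 0.00229, had the smallest dissimilarities, 0.0342 between and 0.0319 within. Dgki at -0.0113, Dgke at -0.0146, Dgkh at -0.0947 and Dgkq at -0.189 differed more within groups than between them. Single pools moved these values, and Dgkh was at -0.0541 without PB 2, Dgke at -0.0360 without control 1, -0.0282 without control 2, -0.0279 without control 3 and -3.52e-05 without PB 1, and Dgki at -0.00383 without control 2 and at -0.0202, -0.0202 and -0.0201 without PB 1, 2 and 3. The sign turned for Dgki without control 3 (0.00721), for Dgke without PB 2 (0.0167), and for Dgka without control 2 (-0.0271) or control 3 (-0.00846), and Dgka was at 0.103 without PB 1, 0.00858 without control 1 and 0.00831 without PB 2. It also turned for Dgkd without control 1 (-0.00682), control 2 (-0.00659) or PB 3 (-1.24e-05) and with shares of start groups (-0.000454), and Dgkd was at 0.0239 without PB 2. With shares of start groups Dgka was at 0.0585, Dgkh at -0.0629, Dgke at -0.0188 and Dgki at -0.00506. Dgkq, with 0.628 within groups, had a higher value within groups than 96.3% of the 11005 genes.

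The spans of some members overlap those of other genes, and the strand setting used in counting is not stated, so their counts are uncertain to that extent. Dgkz overlaps Gm39876 on the opposite strand over 168 bases at its 3′ end, where the ends of its transcripts differ, and Gm39876 had 7 to 13 counts per pool. It also contains Mir6999 on its own strand. Dgkq overlaps Idua and Tmem175 over 497 and 727 bases, Dgka overlaps Pym1 over 542, Pmel over 105 and Gm31504 over 849, and Dgkd overlaps Usp40 over 59 and Gm19582 over 953, all on the opposite strand. The span of Dgkg, introns included, overlaps that of Gm15651 on the opposite strand over 23679 bases, and Gm15651 had 14 to 29 counts per pool beside the 24 to 47 of Dgkg. The share of the counts that these overlaps contribute was not tested.

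The enzymes that make, read and remove DAG were examined as a list of 57 genes, of which 56 were in the annotation and tested. Mulk was the symbol without an entry, an older name of Agk. In PB 30 of the 56 had a log2 fold change above 0 and 26 below, with a median of 0.013 beside 0.0020 over all genes tested. By edgeR 0 of the 56 passed the thresholds, 3 had an unadjusted p under 0.05, beside 4.46% of all genes, and DESeq2's Wald test called 0. The groups did not overlap in 5 of the 56, beside the 10.7% of all genes.

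Among the enzymes that release DAG, 6 of the 13 phospholipase C genes were higher and 7 lower in PB, with a median log2 fold change of -0.045. Plcg2, the form downstream of immune receptors, was 24.7, 17.5 and 25.3 CPM in control and 16.0, 17.5 and 17.0 CPM in PB. Control 2 lay with the PB pools while the other control pools were above them, and the log2 fold change was -0.42 (SE 0.14, FDR = 0.888 by edgeR with Benjamini-Hochberg adjustment). Among the 20 proteins that DAG recruits or activates, 12 were higher and 8 lower, with a median of 0.049. Rasgrp2, an exchange factor for Rap, was 6.22, 5.82 and 5.90 CPM in control and 4.38, 5.49 and 4.68 CPM in PB, with every PB pool under every control pool, a log2 difference of -0.30 (SE 0.12, FDR = 0.888 by edgeR).

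In the resynthesis of phosphatidylinositol and related lipids, 3 of 7 genes were higher and 4 lower, with a median of -0.055. Tamm41, the mitochondrial CDP-DAG synthase, measured 15.6 ± 0.601 CPM in control against 13.8 ± 0.533 CPM in PB, with every PB pool under every control pool, a log2 difference of -0.17 (SE 0.066, FDR = 0.888 by edgeR). The 6 phosphatidic acid phosphatases, which turn the product of the DGKs back into DAG, had 3 members on each side and a median of -0.0080. Their most abundant gene per length, Plpp3, was 22.9 ± 0.185 CPM per kb in control and 22.3 ± 2.20 CPM per kb in PB. Of the 4 other enzymes that use DAG, 3 were higher, with Dgat1, which makes triglyceride, at 16.9 ± 1.09 and 18.7 ± 4.37 CPM per kb.

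Both phospholipase D genes, which make phosphatidic acid by another route, had log2 fold changes above 0 with a median of 0.084, and Pld1 was 5.65 ± 0.254 CPM per kb in control and 6.01 ± 0.133 CPM per kb in PB. Of the 4 related lipid kinases tested, 1 was higher and 3 were lower, with a median of -0.12. Sphk2, a kinase of sphingosine, was 18.8 ± 0.574 CPM per kb in control and 17.4 ± 1.39 CPM per kb in PB. These levels lay between those of Dgka and Dgkd.

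Markers of other cells that could be carried along with the ovary were measured as well. The 5 mesonephros markers, led by Pax8 at 11.7 CPM, summed to 15.1, 16.9 and 33.4 CPM in control and 16.4, 21.1 and 14.5 CPM in PB. The 7 red cell genes, led by Hbb-bs at 8323 CPM, summed to 23765, 32427 and 15118 CPM in control and 20350, 18648 and 18818 CPM in PB. Control 3 was thus high for mesonephros and low for red cells. The 5 endothelial markers, led by Kdr at 117 CPM, summed to 306, 309 and 339 CPM in control and 297, 314 and 301 CPM in PB, and the 6 macrophage markers, led by Csf1r at 20.0 CPM, to 59.8, 66.1 and 63.5 CPM and 54.5, 63.9 and 64.1 CPM. The 9 markers of neurons and Schwann cells summed to 24.7, 31.9 and 27.6 CPM in control and 27.5, 35.1 and 32.9 CPM in PB. The 3 markers of adrenal cortex, led by Star at 8.27 CPM, summed to 8.54, 10.2 and 7.15 CPM in control and 10.4, 8.75 and 9.08 CPM in PB. Cyp11b1, a defining gene of the adrenal cortex, was at 0 in all pools but control 2. In each of these lists the sums of control and PB overlapped, and their part in the DGK values was not tested.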

How the data were processed

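RNA was sequenced from 3 control and 3 PB pools. Reads were mapped by the authors to mm10 (HISAT2 2.1.0). They assembled transcripts with StringTie 1.3.5 on RefSeq and quantified them in each pool. The deposited counts per transcript and pool were made from this quantification with prepDE. The deposited table of the authors' DESeq2 1.30.0 comparison gave the gene names. Its 6 columns of normalized values and its log2 fold changes, standard errors, test statistics, p-values and adjusted p-values were not used.

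Gene sums, start groups and transcripts were each fitted over all features with edgeR 4.0.16 (TMM scaling, filterByExpr at min.count 10 and min.total.count 15, quasi-likelihood F-test, Benjamini-Hochberg adjustment), and the alternatives included DESeq2 1.42.0. A ratio of group CPM has an exact (Clopper-Pearson) 95% interval. The members and lists were chosen with earlier results of these data known. Transcripts were named with a share of at least 10% of their gene over all pools, or with groups that did not overlap, a ratio of at least 4 and a mean of at least 0.5 CPM in the higher group, and other names are marked. Pathway genes were named at an unadjusted p under 0.05 or, in lists without one, as the most abundant per length.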

Additional observations from a re-analysis of the deposited data

How the results depend on the processing

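The alternatives were no filter, a stricter filter, DESeq2 size factors, the DESeq2 Wald test, the replicate block, an FDR of 0.1, known transcripts only, StringTie loci, other start groups and leaving out each pool in turn. DGK genes called and DAG pathway genes called stayed at 0 under all of those run. DGK transcripts called went from 1 to 10 with the DESeq2 Wald test, to 0 with the replicate block, and were 0 to 1 with a pool left out, 0 without control 1, control 3 or PB 1. Over all transcripts the calls went from 17 to 1172 with the DESeq2 Wald test, to 0 with the replicate block, and to 0, 1 and 2 without control 1, control 3 and PB 1, so the loss was not particular to the DGK transcripts. DGK start groups called went from 0 to 4 with the DESeq2 Wald test, where those of all start groups went from 4 to 651. The causes were not tested. The replicate block gave the Dgkz gene sum a log2 fold change of -0.040, and leaving out a pool gave -0.079 to -0.017. After centring each group, same-numbered control and PB pools correlated across gene sums at 0.0936, 0.240 and 0.0562. Control and PB pools of unlike number correlated at -0.232 to 0.153, most of them below 0. Across transcripts the same-numbered pools were at -0.0115, 0.0214 and -0.00207, and those of unlike number at -0.0222 to 0.0248. Whether the numbers pair the samples was not tested. The isoform dissimilarity of Dgkz went from 0.343 to 0.451 with known transcripts only, to 0.282 with shares of start groups, and to 0.294 to 0.435 with a pool left out. Joining transcripts that differ by at most 10 exonic bases, an alternative chosen after seeing the data, gave 0.278. That of Dgkb, 0.365, was 0.165 with shares of start groups and 0.202 to 0.594 with a pool left out, and that of Dgkd, 0.00229, was -0.00682 to 0.0239. The value of Dgka, 0.0171, was 0.0269 with joined transcripts and 0.0585 with shares of start groups. That of Dgki, -0.0113, was -0.00506 with shares of start groups. Dgkq has 1 start group and no such value. Transcripts that differ by a few bases limit how far their counts can be told apart.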

Other observations

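Of the 46 pathway genes with enough counts for isoform dissimilarity, 6 lay above the 90th percentile of all 11005 genes, 0.0449. Tamm41, the mitochondrial CDP-DAG synthase, had a dissimilarity of 0.620 between groups and 0.395 within groups, a difference of 0.226 that exceeded that of 98.5% of the genes. The others of the 6 were Plcd1 at 0.160, Rasgrp3 at 0.103, Plcb1 at 0.0615, Unc13d at 0.0570 and Prkcd at 0.0533. Prkcd is a protein kinase C isoform that DAG activates. Cerk, at -0.204, had the lowest difference of the pathway genes, and Pld1 had one of -0.178, with 0.641 within groups and 0.464 between them. The genes named here were chosen after their values were seen.

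The gene sums of Dgka and Dgke in CPM were also lowest in control 2 and PB 2, the pools with the lowest germ cell marker sums. Per length, control 1 was the lowest control pool of Dgka, at 2.78 CPM per kb beside 2.79 in control 2. Dgka was 8.07, 7.83 and 9.09 CPM in control and 9.43, 7.26 and 9.56 CPM in PB. Dgke was 14.0, 13.2 and 14.2 CPM in control and 16.5, 13.2 and 14.2 CPM in PB. Dgkh and Dgki did not share this order, with 11.0, 11.6 and 11.9 CPM and 1.33, 2.31 and 1.25 CPM in the control pools. In the PB pools Dgki was lowest in PB 2, at 2.18, 1.47 and 1.85 CPM. Dgkq ran the other way and was highest in control 2 and PB 2. It was 9.76, 10.6 and 9.71 CPM in control and 9.25, 9.82 and 7.71 CPM in PB. The likeness of Dgka and Dgke was noticed after the values were seen, and the part of the germ cells in it was not tested.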
